A study of Homo sapiens with 12 samples.

Results

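Plasminogen activators and their inhibitors were followed as a set of 5 genes, chosen by name from the 58735 genes of the count table. They were PLAU, which encodes the urokinase-type plasminogen activator, PLAT, which encodes the tissue-type plasminogen activator, PLAUR, which encodes the urokinase receptor, and the inhibitor genes SERPINE2 (protease nexin-1) and SERPINB2 (PAI-2). All 5 were found, and all 5 passed the filter on low counts that left 16891 genes for testing. The set was chosen with earlier results of these data known. Shares and medians over all tested genes are therefore set beside those of the 5 genes as a description, not as a test of the set. The RNA was from FDX2-iKO ES2 cells. ES2 is a line of human ovarian carcinoma, and in all 4 conditions the endogenous FDX2 had been edited with Cas9 while a TRE-driven, genome editing-resistant FDX2-HA transgene was present. The line was made by limiting dilution, and the study worked with a single clone unless it said otherwise, so clonal effects cannot be told apart here. With Doxy (doxycycline) the transgene was on, and without Doxy it was off, so that withdrawal of Doxy is called FDX2 loss here. In 2 conditions (20% O2 + Doxy and 20% O2 wo Doxy) culture lasted 6 days at 20% O2. In the other 2 (3% O2 + Doxy and 3% O2 wo Doxy) they spent 4 days at 20% O2 with Doxy present or absent and then moved to 3% O2 for 3 days. Each condition had 3 biological replicates, 12 libraries in all. The 3% O2 cultures thus ran 1 day longer, and lower oxygen and the extra day cannot be told apart. No condition without the transgene system was compared, so loss of FDX2 and removal of the drug itself cannot be told apart either.

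Both activators are serine proteases that cut plasminogen, a zymogen made mainly by the liver, into plasmin. Plasmin dissolves fibrin and degrades other proteins of the matrix around cells. Urokinase bound to its receptor concentrates this activity at the cell surface, and the inhibitors are serpins, which trap the protease in a covalent complex. Urokinase and its receptor are known for roles in invasion by carcinoma cells, and protease nexin-1 also inhibits thrombin. SERPINB2 lies in a cluster of clade B serpin genes and is made by keratinocytes and activated macrophages among other cells.

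PLAU (ENSG00000122861) lies on chromosome 10 at 73909177 to 73917497 of GRCh38, plus strand, and 31.1% of its exonic bases are shared with the antisense gene C10orf55. PLAT (ENSG00000104368) lies on chromosome 8 at 42175233 to 42207724, minus strand. PLAUR (ENSG00000011422) lies on chromosome 19 at 43646095 to 43670547, minus strand, and SERPINE2 (ENSG00000135919) on chromosome 2 at 223975112 to 224039319, minus strand. SERPINB2 (ENSG00000197632) lies on chromosome 18 at 63871692 to 63903890, plus strand, and shares 19.9% of its exonic bases with SERPINB10, which had 0 to 6 counts per library. C10orf55 had 95 to 185 counts in 11 libraries and 750 in 3% O2 wo Doxy replicate 1, against 9919 for PLAU there. The strand setting of the counting is not given in the sources used here, so reads in the shared bases of PLAU and C10orf55 cannot be assigned with certainty.

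The libraries held between 24958386 and 34313637 counts, and the chi-square of a gene's counts between replicates, over its degrees of freedom, had medians of 1.32 to 4.54 in the conditions, so no libraries were taken as copies of each other. FDX2 itself had 2 to 13 counts per library, too few to test, and 70.9% of its exonic bases also belong to other genes, so the genotype could not be checked on these counts. Of the epithelial ovarian carcinoma markers, KRT8, KRT18 and PAX8 were present, whereas EPCAM had at most 3 counts in a library and MUC16 none. All 5 leukocyte markers stayed at or below 7 counts per library. Of the 4 endothelial markers, PECAM1 and VWF stayed at or below 6 counts but CDH5 had 656 to 1412 and KDR 51 to 92, and their summed level was 24.0 to 30.1 CPM in the 20% O2 + Doxy libraries and 43.1 to 54.4 in the 3% O2 wo Doxy libraries. What this difference has to do with the levels of the 5 genes was not tested. Fewer producing cells and less RNA per cell cannot be told apart in such bulk libraries.

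Because these genes moved with FDX2 and oxygen in part together and in part in opposite directions, the 250 bases before their start sites are shown, from RefSeq on GRCh38.p14. Windows were read for 4 of the 5 genes, 6 windows in all, and the 5 that held any of the searched motifs are printed on the gene's own strand. Capitals mark matches on either strand to AP-1 (TGANTCA), the core of the hypoxia response element (ACGTG or GCGTG), the TATA box (TATAAA) and the GC box (GGGCGG).
PLAU, chr10:73910882-73911131, plus strand: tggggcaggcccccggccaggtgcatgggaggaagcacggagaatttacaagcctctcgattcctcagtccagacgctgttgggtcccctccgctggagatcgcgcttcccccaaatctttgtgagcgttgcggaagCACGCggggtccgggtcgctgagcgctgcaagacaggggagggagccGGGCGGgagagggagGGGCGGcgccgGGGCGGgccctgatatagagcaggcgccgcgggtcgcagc
PLAUR, chr19:43670170-43670419, minus strand: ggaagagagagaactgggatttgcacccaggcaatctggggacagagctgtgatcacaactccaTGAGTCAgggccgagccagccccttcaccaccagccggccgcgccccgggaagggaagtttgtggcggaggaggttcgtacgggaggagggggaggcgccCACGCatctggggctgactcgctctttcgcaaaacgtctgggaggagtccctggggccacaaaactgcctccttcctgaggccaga
SERPINE2, chr2:224038641-224038890, minus strand: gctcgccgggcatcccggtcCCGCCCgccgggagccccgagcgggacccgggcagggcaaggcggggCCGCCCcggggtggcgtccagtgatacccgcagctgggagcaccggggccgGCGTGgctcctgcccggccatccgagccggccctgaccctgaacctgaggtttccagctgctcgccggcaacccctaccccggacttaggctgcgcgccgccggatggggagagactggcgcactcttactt
SERPINE2, second start site, chr2:224031479-224031728, minus strand: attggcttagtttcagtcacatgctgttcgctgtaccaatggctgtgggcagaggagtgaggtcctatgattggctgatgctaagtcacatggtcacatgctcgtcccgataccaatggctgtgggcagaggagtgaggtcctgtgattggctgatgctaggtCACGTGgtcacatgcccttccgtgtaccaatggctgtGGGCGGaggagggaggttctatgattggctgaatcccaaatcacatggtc
SERPINB2, chr18:63887455-63887704, plus strand: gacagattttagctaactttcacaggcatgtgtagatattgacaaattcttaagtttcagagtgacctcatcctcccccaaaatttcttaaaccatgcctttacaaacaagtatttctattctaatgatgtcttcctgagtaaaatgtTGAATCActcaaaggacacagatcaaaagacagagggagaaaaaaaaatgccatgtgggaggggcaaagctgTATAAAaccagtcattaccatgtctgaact

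The SERPINB2 window held the letters of a TATA box 30 bases before the start site and an AP-1 match 102 bases before it, with no GC box and no hypoxia core. The PLAUR window held an AP-1 match and 1 hypoxia core, and no TATA box or GC box. The PLAU window held 3 GC boxes and 1 hypoxia core, and an upstream PLAU window held none of the motifs. In SERPINE2 the upstream window held 2 GC boxes and 1 hypoxia core, and the downstream window 1 GC box and the palindrome CACGTG, which counts as 2 overlapping hypoxia cores. Among all 35116 RefSeq windows of this length, 6.57% held an AP-1 match, 43.2% a hypoxia core, 10.7% a TATA box and 42.6% a GC box. The matches are letters in a window, not measured binding sites, and a motif that is missing here may lie elsewhere. The windows differed in base composition, from 37.2% G and C in SERPINB2 to 75.2% in the upstream SERPINE2 window.

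Levels of the 5 genes were first compared with each other per length, as TPM on the union of GENCODE exons. PLAU was the most abundant by this measure, with a mean of 336 TPM in 20% O2 + Doxy and 500 TPM in 3% O2 wo Doxy, and it exceeded each other member in 12 of 12 libraries. This order rests on the exon lengths, 6618 bases for PLAT and 2950 for PLAU. In CPM, which takes no account of length, mean PLAT was above PLAU without Doxy (427 against 319 at 20% O2, 475 against 401 at 3% O2). With Doxy mean PLAT was below PLAU in CPM too (264 against 268, and 336 against 358). SERPINE2 was the least abundant, between 13.9 and 21.1 TPM in single libraries. PLAUR, the receptor, came next above it, with 90.2 to 137 TPM, and lay below PLAT and SERPINB2 in 12 of 12 libraries. The order of PLAT and SERPINB2 varied in TPM, while in CPM mean PLAT was above mean SERPINB2 in all 4 conditions. At 20% O2 SERPINB2 was above PLAT in all 6 libraries (mean 259 against 148 TPM with Doxy, and 389 against 253 TPM without). At 3% O2 with Doxy the SERPINB2 libraries (205 to 220 TPM) and the PLAT libraries (168 to 212 TPM) overlapped, with PLAT higher in 1 of 3. Without Doxy PLAT was higher in 3 of 3 libraries, although SERPINB2 (225 to 271 TPM) and PLAT (241 to 284 TPM) overlapped across libraries.

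**Figure D1:**
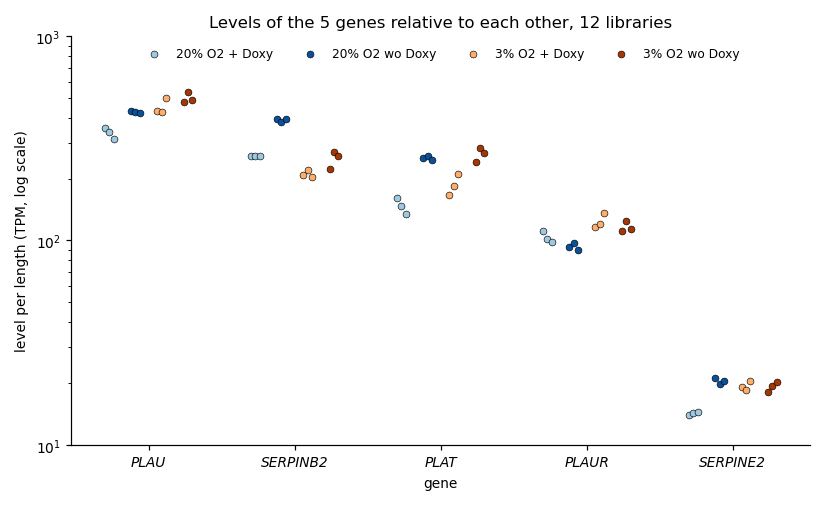
Levels per length in TPM on a log axis for the 5 genes (x axis) in the 12 libraries, with points coloured by condition. PLAU lies highest and SERPINE2, below 22 TPM, lowest in every condition. Within a condition, PLAT and SERPINB2 overlap only at 3% O2.

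FDX2 loss at 20% O2 raised both activator genes and both inhibitor genes and lowered the receptor gene. Of the 5 genes, 4 rose and 1 fell, where 17.6% of all tested genes rose and 17.7% fell (edgeR's quasi-likelihood test, Benjamini-Hochberg adjusted p under 0.05). The median log2 fold change of the 5 was 0.44, against 0.009 over all 16891 genes. PLAT changed most. Its normalised level, in CPM (counts relative to the TMM-scaled library total), was 291, 259 and 243 in the 3 libraries with Doxy and 428, 441 and 413 in those without. The conditions did not overlap, and PLAT rose by 0.69 on the log2 scale (SE 0.0929, adjusted p = 0.000199), or 1.62-fold with a 95% interval of 1.40 to 1.86. The call was kept in all 6 fits that left out a library, with values between 0.63 and 0.76.

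The inhibitor gene SERPINB2 was measured very evenly at 20% O2. It had 194, 191 and 193 CPM with Doxy and 276, 269 and 274 CPM without, a log2 fold change of 0.50 (SE 0.0526, adjusted p = 3.44e-05). SERPINE2 had 33.9, 34.1 and 34.9 CPM with Doxy and 47.9, 45.3 and 46.1 CPM without. This was a log2 fold change of 0.44 (SE 0.0545, adjusted p = 0.000119), or 1.35-fold (95% interval 1.25 to 1.47). For both inhibitor genes the 3 libraries without Doxy lay well above the 3 with Doxy. Both calls were kept in the 6 fits that left out a library of these conditions (0.48 to 0.50 for SERPINB2 and 0.42 to 0.45 for SERPINE2).

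PLAU and PLAUR, the urokinase gene and its receptor gene, moved less and in opposite directions. PLAU had 286, 267 and 250 CPM with Doxy and 322, 324 and 312 CPM without, with no overlap and a log2 fold change of 0.26 (SE 0.0725, adjusted p = 0.0184). PLAUR had 135, 121 and 119 CPM with Doxy and 106, 112 and 102 CPM without, again with no overlap, and fell by 0.23 on the log2 scale (SE 0.0782, adjusted p = 0.0397). Both calls lay near the threshold. The PLAU call was lost without 20% O2 + Doxy replicate 2 (0.25, adjusted p = 0.0580) or replicate 3 (0.20, adjusted p = 0.0732), without 20% O2 wo Doxy replicate 2 (0.22, adjusted p = 0.0568), and with no filter on low counts (0.22, adjusted p = 0.0631), all from edgeR. The PLAUR call was lost without 20% O2 + Doxy replicate 1 (−0.18, adjusted p = 0.0931) or replicate 2 (−0.26, adjusted p = 0.0609) and without 20% O2 wo Doxy replicate 1 (−0.23, adjusted p = 0.0818) or replicate 3 (−0.22, adjusted p = 0.0792). An offset for transcript GC content left both genes called but moved PLAUR to −0.10 (adjusted p = 0.0388) and PLAU to 0.35 (adjusted p = 2.0e-06, both by edgeR).

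**Figure D2:**
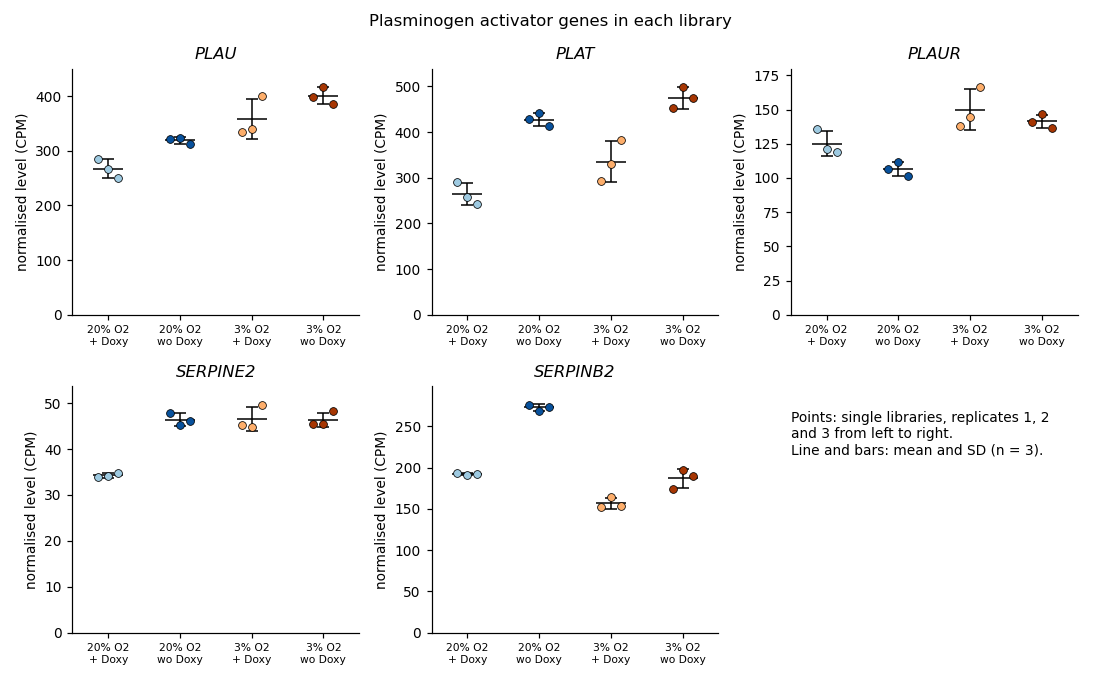
Normalised level in CPM (y axes from 0) of each gene by condition, with points for single libraries and lines and bars for the mean and SD (n = 3). SERPINE2 stands at 33.9 to 34.9 CPM in 20% O2 + Doxy and at 44.8 to 49.7 CPM in the 9 other libraries, while SERPINB2 is highest in 20% O2 wo Doxy.

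At 3% O2 FDX2 loss raised PLAT and SERPINB2, and the other 3 genes did not pass the test. Thus 2 of 5 rose, where 4.2% of all tested genes rose and 3.11% fell. PLAT had 294, 330 and 382 CPM with Doxy and 452, 499 and 474 CPM without. The conditions did not overlap, and the log2 fold change was 0.50 (SE 0.0927, adjusted p = 0.00921). The call was kept when any single one of these 6 libraries was left out (0.41 to 0.61), but in a fit to the 6 alone it was lost (0.48, adjusted p = 0.0685). SERPINB2 had 152, 164 and 154 CPM with Doxy and 175, 197 and 190 CPM without, with no overlap and a log2 fold change of 0.26 (SE 0.0527, adjusted p = 0.0147).

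The SERPINB2 call at 3% O2 was lost without 3% O2 + Doxy replicate 1 (0.24, adjusted p = 0.0663), without 3% O2 wo Doxy replicate 2 (0.22, adjusted p = 0.0648) or replicate 3 (0.25, adjusted p = 0.0545), with no filter (0.22, adjusted p = 0.107) and in the 6 libraries alone (0.23, adjusted p = 0.155), all from edgeR. PLAU had 335, 340 and 400 CPM with Doxy and 399, 417 and 386 CPM without, so the conditions overlapped. Its log2 fold change was 0.16 (95% interval 0.0027 to 0.32, adjusted p = 0.209), and without 3% O2 + Doxy replicate 3, the highest of its condition, it was called at 0.25 (adjusted p = 0.0324). It was also called with the GC offset (0.16, adjusted p = 0.00376). PLAUR had 138, 145 and 167 CPM with Doxy and 141, 147 and 136 CPM without, which overlapped (log2 fold change −0.084, 95% interval −0.26 to 0.088, adjusted p = 0.558).

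SERPINE2 was the member called in the difference of the FDX2-loss responses. At 3% O2 it had 45.2, 44.8 and 49.7 CPM with Doxy and 45.5, 45.6 and 48.2 CPM without. The 6 libraries overlapped, and the log2 fold change was −0.0051 (SE 0.0542, 95% interval −0.12 to 0.11, adjusted p = 0.968). The difference of the responses, 3% minus 20% O2, was −0.44 on the log2 scale (SE 0.0768, 95% interval −0.61 to −0.27, adjusted p = 0.00691). It was called in all 12 fits that left out a library (−0.48 to −0.39). The libraries of 20% O2 + Doxy were the low ones, at 33.9 to 34.9 CPM, and the other 3 conditions had means of 46.4 to 46.6 CPM.

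For the other 4 genes the difference between oxygen levels did not pass the test, where 3.21% of all tested genes were called higher and 4.08% lower in this comparison. SERPINB2 came nearest (−0.25, SE 0.0743, adjusted p = 0.0718). Of its 21 alternatives only DESeq2's Wald test called it (adjusted p = 0.0089), and the GC offset did not (−0.20, adjusted p = 0.126 by edgeR). PLAU had −0.093 (95% interval −0.32 to 0.13), PLAT −0.19 (−0.48 to 0.095) and PLAUR 0.15 (−0.096 to 0.39). With the GC offset PLAU and PLAT were called (−0.20, adjusted p = 0.00739, and −0.29, adjusted p = 0.00777, by edgeR) and PLAUR moved to −0.00178. The transcripts of PLAU, PLAT and PLAUR held 54.0%, 53.6% and 55.9% G and C, above the median of 48% over genes with a count, and those of SERPINE2 and SERPINB2 held 46.0% and 43.2%.

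**Figure D3:**
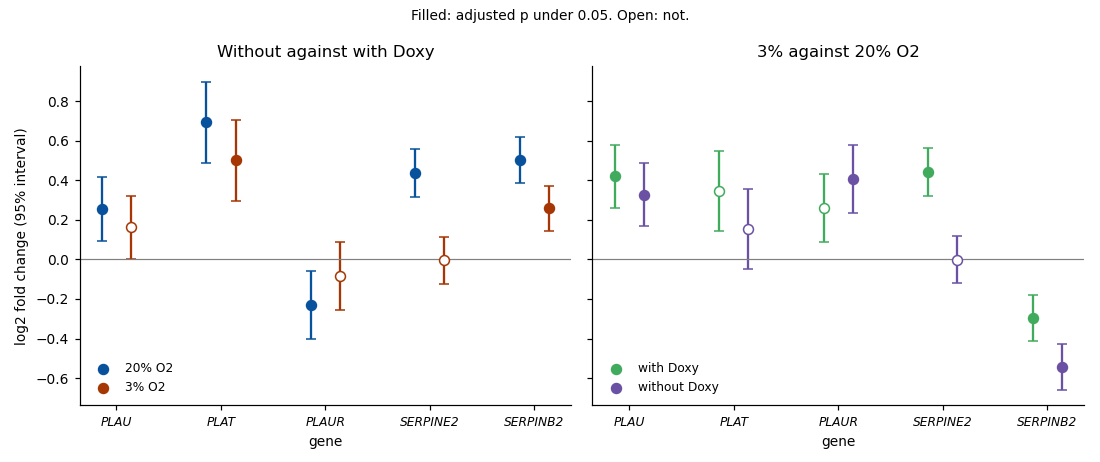
Log2 fold changes with 95% intervals for FDX2 loss (left, at 20% and 3% O2) and for 3% against 20% O2 (right, with and without Doxy), filled where the adjusted p was under 0.05. SERPINE2 stands at 0.44 for FDX2 loss at 20% O2 and at −0.0051 at 3% O2, and SERPINB2 lies below 0 in both oxygen comparisons while no other member does so with a call.

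Low oxygen was then compared within cells that kept FDX2. These comparisons share their libraries with those of FDX2 loss and are not independent of them. With Doxy, 3% O2 raised PLAU and SERPINE2 and lowered SERPINB2, so that 2 of 5 rose and 1 fell, where 1.63% of all tested genes rose and 0.385% fell. The rise of SERPINE2 was 0.44 on the log2 scale (SE 0.0545, adjusted p = 0.0011, 1.36-fold), with no overlap between conditions. It was called in all 6 fits without a library (0.39 to 0.47). PLAU rose by 0.42 (SE 0.0725, adjusted p = 0.0109), from 250 to 286 CPM at 20% O2 to 335 to 400 CPM at 3% O2. SERPINB2 fell by 0.30 (SE 0.0526, adjusted p = 0.0128), from 191 to 194 CPM at 20% O2 to 152 to 164 CPM at 3% O2. PLAT (0.35, adjusted p = 0.0953) and PLAUR (0.26, adjusted p = 0.141) were also higher in all 3 libraries at 3% O2 than in any at 20% O2, but did not pass the test. The share of all tested genes without such overlap was not taken.

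With Doxy the calls of PLAU, SERPINB2 and SERPINE2 were lost in some fits, and PLAT and PLAUR gained a call in some. SERPINE2 kept its call in the 6 libraries alone (0.44, adjusted p = 0.0449 by edgeR). It lost the call there with the replicate block (0.44, adjusted p = 0.590). PLAU lost its call without 20% O2 + Doxy replicate 2 (0.42, adjusted p = 0.0622) or replicate 3 (0.37, adjusted p = 0.0592), and in the 6 libraries alone (0.41, adjusted p = 0.125). SERPINB2 lost its call without 20% O2 + Doxy replicate 2 (−0.30, adjusted p = 0.0590) or replicate 3 (−0.30, adjusted p = 0.0531), without 3% O2 + Doxy replicate 1 (−0.28, adjusted p = 0.0606) and in the 6 libraries alone (−0.30, adjusted p = 0.129), all from edgeR. PLAT gained a call without 20% O2 + Doxy replicate 1 (0.41, adjusted p = 0.0460) or 3% O2 + Doxy replicate 1 (0.43, adjusted p = 0.0391), with DESeq2 (0.33, adjusted p = 0.0177) and with the GC offset (0.32, adjusted p = 0.000954). PLAUR gained a call with the GC offset (0.23, adjusted p = 0.00271).

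Without Doxy, 3% O2 raised PLAU and PLAUR and lowered SERPINB2. Again 2 of 5 rose and 1 fell, where 13.9% of all tested genes rose and 11.9% fell. SERPINB2 fell by 0.54 on the log2 scale (SE 0.0526, adjusted p = 6.49e-05), from a mean of 273 ± 3.73 to 187 ± 11.6 CPM (SD, n = 3). The value lay between −0.58 and −0.49 when any single library of these conditions was left out. PLAUR rose by 0.41 (SE 0.0783, adjusted p = 0.00393), from 107 ± 5.18 to 141 ± 5.08 CPM. PLAU rose by 0.33 (SE 0.0725, adjusted p = 0.00811), from 319 ± 6.65 to 401 ± 15.6 CPM. All 3 calls were kept in the 6 fits that left out a library and in the fits to these 6 libraries with the replicate number as a block. With the GC offset PLAUR and PLAU kept their calls at 0.23 and 0.20. PLAT had a value of 0.15 (95% interval −0.051 to 0.36, adjusted p = 0.244), although its 3 libraries at 3% O2 (452 to 499 CPM) lay above those at 20% O2 (413 to 441 CPM). With the GC offset the value of PLAT was 0.033 (adjusted p = 0.601 by edgeR). SERPINE2 had means of 46.4 ± 1.36 and 46.4 ± 1.55 CPM, and its log2 fold change had a 95% interval of −0.12 to 0.12 (adjusted p = 0.995).

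Ratios of TPM within each library were taken to set activators, receptor and inhibitors against each other, as a description without a test. Their absolute size rests on the exon lengths used, which are the same in every condition. The ratio of PLAT to PLAU was 0.439 ± 0.0119 with Doxy and 0.596 ± 0.0094 without at 20% O2 (SD, n = 3). At 3% O2 it was 0.417 ± 0.0223 with Doxy and 0.529 ± 0.0219 without, and at either oxygen level the libraries with and without Doxy did not overlap. The ratio of PLAU to its receptor gene was 3.23 ± 0.0791 and 4.53 ± 0.140 at 20% O2 and 3.62 ± 0.0574 and 4.29 ± 0.0133 at 3% O2, in the same order. PLAU to SERPINB2 separated the oxygen levels, with 1.06 to 1.37 in the 6 libraries at 20% O2 and 1.89 to 2.42 in the 6 at 3% O2.

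**Figure D4:**
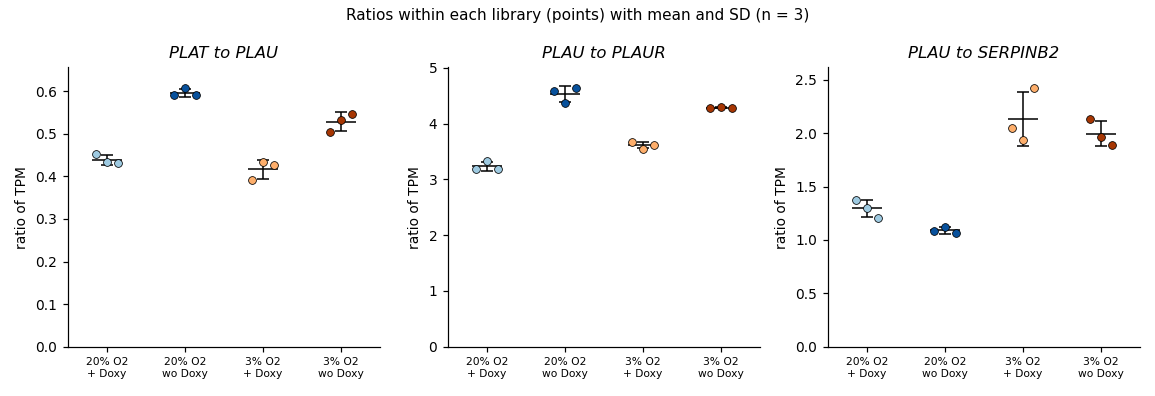
Ratios of TPM within each library (points) for PLAT to PLAU, PLAU to PLAUR and PLAU to SERPINB2, with mean and SD per condition (n = 3) on axes from 0. The PLAT to PLAU and PLAU to PLAUR ratios are higher without Doxy at either oxygen level, and the PLAU to SERPINB2 ratio is at or above 1.89 in all libraries at 3% O2 and at or below 1.37 at 20% O2.

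The spread between replicates, as the coefficient of variation (CV), differed between conditions. In 3% O2 + Doxy replicate 3 was highest for PLAU, PLAT and PLAUR, with CVs of 10.03%, 13.2% and 10.03%, against 1.59% for the ratio of PLAU to PLAUR. In 20% O2 + Doxy replicate 1 was highest for the 3 genes, with CVs of 6.64%, 9.23% and 7.26%, against 2.45% for that ratio. These libraries, 3% O2 + Doxy replicate 3 and 20% O2 + Doxy replicate 1, had the lowest TMM factors of their conditions (0.940 and 0.955). What the factors have to do with the shared high levels was not tested. In 20% O2 wo Doxy the ratio (3.08%) varied more than PLAU (2.08%) and less than PLAUR (4.86%), and in 3% O2 wo Doxy it had 0.309%, against 3.90% for PLAU and 3.597% for PLAUR. The inhibitor genes had no common order relative to these 3. SERPINB2 had CVs between 0.768% (20% O2 + Doxy) and 6.18% (3% O2 wo Doxy), and SERPINE2 between 1.60% (20% O2 + Doxy) and 5.76% (3% O2 + Doxy).

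The genes whose levels most resembled each member were taken from 10764 genes with a symbol and a mean of at least 5 CPM, by Pearson's r of log2 CPM over the 12 libraries, which share their conditions and their depth. For SERPINE2 they were the glucose transporter gene SLC2A3 (r = 0.971), STC1 (0.970) and VEGFA (0.962), which encode stanniocalcin-1 and vascular endothelial growth factor A. For PLAU they were HK1 (0.972), the matrix metalloproteinase gene MMP2 (0.971) and CAMK1G (0.967). For PLAT they were the receptor gene FGFR1 (0.988), GADD45B (0.987) and BTBD19 (0.984). For PLAUR they were the collagen lysyl hydroxylase gene PLOD1 (0.990), P4HB (0.986) and the glycolytic gene GAPDH (0.986). For SERPINB2 they were CLMP (0.982), ZBED3 (0.980) and NQO1 (0.978), a quinone reductase gene. No gene was among the nearest for more than 1 member.

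Of 21 other genes of the plasminogen system, 14 had enough counts to be tested. PLG, the gene of plasminogen itself, had at most 1 count in a library, and SERPINF2, A2M, CPB2, HRG, LRP2 and SORL1 at most 6. FDX2 loss at 20% O2 raised 5 of the 14 and lowered 2, with a median log2 fold change of 0.17, where 17.6% of all tested genes rose and 17.7% fell. The integrin genes ITGB3 (0.87, adjusted p = 0.000113) and ITGAV (0.31, adjusted p = 0.0246), whose products form a vitronectin receptor, rose by edgeR's test, as did VLDLR (0.53, adjusted p = 0.000202), a receptor that clears complexes of urokinase with its inhibitors. So did SERPINA5 (0.81, adjusted p = 0.0234), the protein C inhibitor gene, at only 14 to 34 counts per library there, and S100A10 (0.31, adjusted p = 0.0200). ITGB3 shares 51.6% of its exonic bases with another gene on its strand. VTN, the vitronectin gene, had the lowest value of the 14 (−0.55, adjusted p = 0.377 by edgeR). It did not pass the test and had only 5 to 13 counts per library there. The plasminogen-binding proteins annexin A2 and enolase 1 had the genes that fell, ANXA2 from 2300 ± 48.0 to 1648 ± 54.1 CPM (SD, n = 3; log2 fold change −0.48, adjusted p = 3.52e-06) and ENO1 (−0.52, adjusted p = 0.000551). S100A10, whose product pairs with annexin A2, and ANXA2 thus moved in opposite directions.

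Of the rises at 20% O2, those of ITGAV, S100A10 and SERPINA5 did not keep their calls in all fits that left out a library. ITGAV lost its call without 20% O2 + Doxy replicate 1 (0.22) or replicate 2 (0.33), and without 20% O2 wo Doxy replicate 1 (0.31), replicate 2 (0.33) or replicate 3 (0.25). S100A10 lost it without 20% O2 + Doxy replicate 1 (0.25) or replicate 2 (0.29), and without 20% O2 wo Doxy replicate 1 (0.30), replicate 2 (0.30) or replicate 3 (0.29). SERPINA5 lost it without 20% O2 + Doxy replicate 2 (0.71) or replicate 3 (0.73), without 20% O2 wo Doxy replicate 1 (0.77) or replicate 2 (0.78), and with DESeq2 (0.79, adjusted p = 0.0635).

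At 3% O2 FDX2 loss raised 1 of the 14, the clearance receptor gene LRP1, and lowered 1, VLDLR (−0.47, adjusted p = 0.00294 by edgeR), with a median of 0.071, where 4.2% of all tested genes rose and 3.11% fell. LRP1 was called at 0.61 (adjusted p = 0.0475) and lost its call without 3% O2 + Doxy replicate 1 (0.52) or replicate 2 (0.52) and without 3% O2 wo Doxy replicate 2 (0.51) or replicate 3 (0.60). VLDLR had 18.6 ± 0.484 CPM in 20% O2 + Doxy, 26.8 ± 1.01 in 20% O2 wo Doxy, 44.7 ± 3.72 in 3% O2 + Doxy and 32.3 ± 1.90 in 3% O2 wo Doxy (SD, n = 3). It thus rose with FDX2 loss at 20% O2 and fell with it at 3% O2, a difference of −0.998 on the log2 scale (SE 0.0996, adjusted p = 0.000449). ANXA2 was the other of the 14 called in the difference of the responses (0.42, adjusted p = 0.00121), with 2337 ± 30.9 CPM with Doxy and 2238 ± 52.9 without at 3% O2.

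Low oxygen raised 2 of the 14 with Doxy and 4 without, with medians of 0.13 in each, where 1.63% of all tested genes rose with Doxy and 13.9% without. With Doxy these were VLDLR (1.27, adjusted p = 3.38e-06) and S100A10 (0.76, adjusted p = 0.000908). Without Doxy they were ENO1 (0.67, adjusted p = 0.000255), S100A10 (0.47, adjusted p = 0.00381), ANXA2 (0.44, adjusted p = 2.17e-05) and VLDLR (0.27, adjusted p = 0.0174). This VLDLR call was lost without 20% O2 wo Doxy replicate 1 (0.24) or replicate 2 (0.24) and without 3% O2 wo Doxy replicate 3 (0.23).

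**Figure D5:**
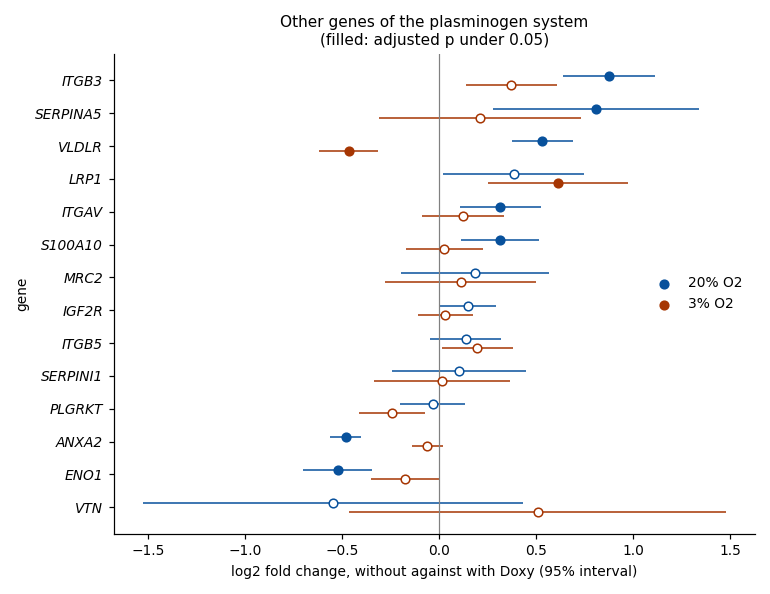
Log2 fold changes with 95% intervals (x axis) for FDX2 loss at 20% and at 3% O2 in the 14 other genes of the plasminogen system that could be tested (y axis), filled where the adjusted p was under 0.05. VLDLR is filled on opposite sides of 0, at 0.53 and −0.47.

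The neighbours of SERPINB2 in the clade B serpin cluster mostly had few counts in these libraries. Of 10 listed genes of the cluster, 7 had at most 6 counts in a library, and SERPINB2, SERPINB7 and SERPINB8 could be tested. SERPINB7 rose with FDX2 loss at 20% O2, from 87.7 ± 3.58 to 125 ± 4.45 CPM (SD, n = 3; log2 fold change 0.52, adjusted p = 5.96e-05 by edgeR). At 3% O2 its value was 0.23 (adjusted p = 0.0359), a call that was lost in each of the 6 fits without a library (0.18 to 0.26), with DESeq2's size factors (0.21, adjusted p = 0.0630) and in most other settings. Unlike SERPINB2 it did not pass the test in either oxygen comparison (0.16 with Doxy and −0.12 without), and whether the 2 genes differed there was not tested. SERPINB8 had values between −0.12 and 0.11 in all 5 comparisons and passed none.

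Of 8 other genes of the LU-domain family, to which the urokinase receptor belongs, 4 could be tested and LY6D, LY6E, LYPD3 and LYPD6B had at most 2 counts in a library. FDX2 loss at 20% O2 lowered 2 of the 4, where 17.7% of all tested genes fell. LYPD6 fell by 0.69 on the log2 scale (adjusted p = 0.000233 by edgeR), from 16.2 ± 0.619 to 10.1 ± 0.496 CPM (SD, n = 3). LY6K fell by 0.54 (adjusted p = 4.03e-05), from 272 ± 22.0 to 187 ± 5.57 CPM, and shares 71% of its exonic bases with an antisense gene. At 3% O2 LY6K had 261 ± 6.76 and 261 ± 4.05 CPM, and the difference of the responses was 0.54 (adjusted p = 0.00342). Without Doxy, 3% O2 raised LY6K (0.48, adjusted p = 0.000231) and LYPD1 (0.39, adjusted p = 0.0221) by edgeR's test. With Doxy the 4 genes had values between −0.096 and 0.19, with adjusted p-values from 0.523 to 0.965. LYPD1 lost its call in these 6 libraries alone (0.38, adjusted p = 0.0525, and 0.37, adjusted p = 0.0593, with the replicate block), with the GC offset (0.20, adjusted p = 0.233) and without 20% O2 wo Doxy replicate 1 (0.37), replicate 2 (0.40) or replicate 3 (0.37) or 3% O2 wo Doxy replicate 1 (0.24). At 3% O2 LYPD6 was called with FDX2 loss (−0.42, adjusted p = 0.0227) and lost the call without 3% O2 + Doxy replicate 1 (−0.36) or replicate 2 (−0.40) and without 3% O2 wo Doxy replicate 1 (−0.43) or replicate 2 (−0.35).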

How the data were processed

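Poly(A) RNA of the 12 cultures was sequenced on a DNBSEQ-T7 instrument after random-hexamer priming. The authors aligned the reads (STAR), summed them per gene (featureCounts) and deposited these raw counts by library, with no pooling of replicates and no normalization. The submitters' processing notes name GRCh38 and DESeq2 as well. The versions of STAR and featureCounts, the annotation and the strand setting are not given in the sources used here. All 58735 identifiers were found in GENCODE release 29, which gave positions, exon lengths and GC content, and 58207 have a symbol. The lengths are unions of all annotated exons, so TPM understates genes that use few of them.

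Counts were analysed with edgeR 4.0.16 (R 4.3.3): filterByExpr (minimum count 10, minimum total 15), TMM scaling, and a quasi-likelihood fit of 4 means to the 12 libraries (8 residual degrees of freedom, and more after edgeR's moderation). Calls rest on Benjamini-Hochberg adjusted p under 0.05 over 16891 genes. Overlap between the libraries of 2 conditions is given as a description, and its share over all tested genes was not taken. The 5 comparisons were FDX2 loss at each oxygen level, 3% against 20% O2 with and without Doxy, and the difference of the FDX2-loss responses. The precision of low genes is limited by their counts. Named genes were the members, list genes that passed the test in some comparison, and the 3 nearest genes by r of log2(CPM + 0.5). Of the other list genes only some were named, and not all that lay at a list's extremes. Members and lists were chosen with earlier results of these data known. Some other inhibitors of plasminogen activators were not analysed here, and a listed marker is not reported here. Alternatives were DESeq2 1.42.0 and its size factors, other filters and thresholds, the compared conditions alone, a replicate block, a GC offset and leaving out each library of the compared conditions. Only the edgeR fit was tested on simulated counts, with genes changed 2-fold in a single condition. Smaller changes and the other steps were not simulated. Same-numbered libraries deviated together, with correlations of 0.255 to 0.407, only between 20% O2 wo Doxy and 3% O2 wo Doxy, so replicate numbers were taken to pair the libraries in that comparison alone. The main fit holds no pairing. Differently numbered libraries had stronger correlations in other comparisons, from −0.712 to 0.828 between 20% O2 + Doxy and 3% O2 + Doxy. Libraries thus shared deviations that their numbers do not follow.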

Additional observations from a re-analysis of the deposited data

Results flagged for a closer look

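In 4 of the genes described, the response to FDX2 loss differed between 3% and 20% O2 by edgeR's test of the difference itself, adjusted over 16891 genes. For SERPINE2 the difference on the log2 scale was −0.44 (adjusted p = 0.00691), with a response of 0.44 at 20% O2 and −0.0051 at 3% O2. For VLDLR it was −0.998 (adjusted p = 0.000449), with responses of 0.53 and −0.47. For ANXA2 it was 0.42 (adjusted p = 0.00121), with responses of −0.48 and −0.062. For LY6K it was 0.54 (adjusted p = 0.00342), with responses of −0.54 and 0.00055. In this comparison 3.21% of all tested genes were called higher and 4.08% lower.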

How the results depend on the processing

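Of 445 values of the 5 genes under the alternatives, 374 kept their direction and their side of the threshold, 47 lost a call, 12 gained a call and 12 reversed. DESeq2's size factors changed no call of the 5 genes. The reversals were of SERPINE2 values near 0 and of the PLAUR difference of the responses. For SERPINE2 they were FDX2 loss at 3% O2 with the GC offset (0.022, and 0.024 with the replicate block in the compared conditions) or without a library (−0.044 to 0.043), and 3% against 20% O2 without Doxy in the same fits (0.037, 0.038, and −0.029 to 0.014). The PLAUR difference, 0.15 as reported, was −0.00178 with the GC offset and −0.0014 with the replicate block and GC offset. The cause was not tested.

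Shares over all tested genes were taken for the main fit only. The numbers of called genes under the alternatives below thus cannot be set against all genes, whose calls may have moved as well. The 2-fold minimum left 0 of the called genes in each comparison, for the 5 genes and for the lists. Numbers of called genes among the 5 were 5 for FDX2 loss at 20% O2 (3 at an adjusted p under 0.01, 3 to 4 without a library), 2 at 3% O2 (1 with no filter or at 0.01, 0 in the compared conditions alone with or without the replicate block, 1 to 3 without a library), 3 for oxygen with Doxy (1 at 0.01 and in the compared conditions alone, 0 with the replicate block there, 5 with the GC offset, 1 to 4 without a library), 3 without Doxy, and 1 for the difference (3 with the GC offset with or without the block, 2 with DESeq2). In the plasminogen system they were 7 at 20% O2 (4 with no filter or at 0.01, 11 with the GC offset, 4 to 7 without a library), 2 at 3% O2 (1 with the replicate block, at 0.01 or alone, 0 alone with the block, 7 with the GC offset, 4 with DESeq2, 1 to 3 without a library), 2 for oxygen with Doxy (5 with the GC offset, 4 with DESeq2, 0 alone with the block, 1 with the GC offset too), and 2 for the difference (4 with the GC offset or DESeq2, 2 to 4 without a library). The serpin cluster had 2 at 3% O2 (0 to 1 in every alternative but the GC offset fits and DESeq2, 0 to 1 without a library), 1 for oxygen with Doxy (2 with the GC offset, 0 at 0.01 and in the compared conditions alone, 0 to 1 without a library) and 0 for the difference (1 with the GC offset, 2 with DESeq2, 0 to 1 without a library). The LU-domain genes had 1 at 3% O2 (0 with a replicate block, at 0.01 or alone, 0 to 1 without a library) and 2 for oxygen without Doxy (1 at 0.01 or alone, 1 to 2 without a library). In the comparison whose libraries were paired, the replicate block lost no named call that the same 6 libraries kept without it, and LYPD1 was lost in both fits. In the other comparisons numbers are shared without pairing, and over all 12 libraries a block took the 5 genes from 5 to 4 called at 20% O2, where PLAUR lost its call (adjusted p = 0.0779).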
